A study of Mus musculus with 12 samples.

Results

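Acute phase proteins are plasma and tissue proteins whose synthesis changes within hours of infection or injury, and 5 of their genes were followed here in microglia activated with lipopolysaccharide (LPS): Lcn2, Saa3, Hp, Cp and Ptx3. The genes were taken by name, and every probe set that the annotation of the Affymetrix Mouse Genome 430 2.0 array assigns to them was used, which gave 13 of the 45101 probe sets and 5 of the 18194 genes measured. Lcn2, Saa3 and Hp had 1 probe set each, Ptx3 had 2 and Cp had 8, and a gene with several was represented by the one with the highest mean.

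RNA came from BV-2 cells, an immortalized mouse microglial line, as 4 groups of 3 arrays and 12 arrays in all. The groups were untreated control cells, cells given 50 µM luteolin, a plant flavonoid, cells given 50 ng/ml LPS, and cells given 50 µM luteolin together with 50 ng/ml LPS, each for 24 h. All groups were this 1 line in culture, with no genetic change named in the labels, and the 3 arrays of a group came from independent stimulation experiments. Whether the untreated cells of the array experiment received the solvent of luteolin is not given in the sources used here, and the extraction text of the labels names another cell (PUER) where all other labels name BV-2.

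The acute phase response is best known from the liver, where interleukin 6, interleukin 1 and tumor necrosis factor act through STAT3, C/EBP factors and NFkB to switch these genes on. Macrophages and glia make part of the same set locally. Lcn2 (lipocalin 2) binds bacterial siderophores and so withholds iron, Hp (haptoglobin) captures free hemoglobin, and Cp (ceruloplasmin) is a copper-carrying ferroxidase. Saa3 is a serum amyloid A protein made mainly outside the liver, and Ptx3 is a long pentraxin that opsonizes microbes and binds complement.

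The 250 bases before the transcription start are shown for the members because these genes are read together here and motifs of the factors just named can be looked for in them. The sequences are those of RefSeq on GRCm38.p6, in which 4 of the 5 genes have an entry and Hp has none. They are written 5′ to 3′ on the strand of the gene, and capitals mark each match to 1 of 5 motifs searched on both strands.
Lcn2, chr2:32387740-32387989, minus strand: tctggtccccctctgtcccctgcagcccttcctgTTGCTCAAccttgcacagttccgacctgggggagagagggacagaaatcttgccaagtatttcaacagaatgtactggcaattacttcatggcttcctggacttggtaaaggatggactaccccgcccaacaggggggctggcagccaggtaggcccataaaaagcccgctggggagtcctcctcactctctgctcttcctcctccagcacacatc
Saa3, chr7:46715677-46715926, minus strand: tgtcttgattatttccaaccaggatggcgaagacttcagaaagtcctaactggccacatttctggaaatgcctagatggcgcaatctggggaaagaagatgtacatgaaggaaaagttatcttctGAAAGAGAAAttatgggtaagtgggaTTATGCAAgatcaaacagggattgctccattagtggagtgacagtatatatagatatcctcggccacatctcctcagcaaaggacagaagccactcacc
Cp, first start, chr3:19956804-19957053, plus strand: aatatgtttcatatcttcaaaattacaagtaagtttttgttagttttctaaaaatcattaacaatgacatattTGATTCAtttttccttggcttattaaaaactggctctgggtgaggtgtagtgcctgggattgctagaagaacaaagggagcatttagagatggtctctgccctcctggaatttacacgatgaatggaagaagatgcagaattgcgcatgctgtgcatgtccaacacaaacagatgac
Cp, second start, chr3:19956999-19957248, plus strand: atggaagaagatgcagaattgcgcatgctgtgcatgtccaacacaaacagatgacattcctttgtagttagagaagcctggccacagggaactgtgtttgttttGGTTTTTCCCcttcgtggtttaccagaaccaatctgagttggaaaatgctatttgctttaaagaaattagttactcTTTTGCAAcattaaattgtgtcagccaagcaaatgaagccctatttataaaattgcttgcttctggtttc
Ptx3, chr3:66219637-66219886, plus strand: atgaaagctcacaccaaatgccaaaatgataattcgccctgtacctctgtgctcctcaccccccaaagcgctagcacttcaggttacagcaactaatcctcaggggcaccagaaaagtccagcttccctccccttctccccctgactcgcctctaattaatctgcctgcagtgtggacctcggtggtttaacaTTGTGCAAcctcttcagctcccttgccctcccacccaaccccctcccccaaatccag
The motifs, with N for any base, were TTGCNNAA for C/EBP, TTCNNNGAA for STAT, GGGA and CC with 4 bases between for NFkB, TGA and TCA with 1 base between for AP-1 and GAAA repeated after 2 bases for IRF, and no match overlapped another. A C/EBP match lay 209 to 216 bases before the start of Lcn2, 92 to 99 before that of Saa3, 63 to 70 before the second start of Cp and 50 to 57 before that of Ptx3. All but the one of Lcn2 were read on the opposite strand. Of 32851 promoters of that length, 9.56% held this motif. The other matches were 1 IRF motif in Saa3, at 116 to 125 bases and held by 2.98% of promoters, 1 AP-1 motif 171 to 177 bases before the first start of Cp, held by 6.75%, and 1 NFkB motif 137 to 146 bases before its second start, held by 17.6%. The STAT motif, which 7.02% of promoters held, was not found in these windows. The windows of the Cp starts overlap. These matches describe the letters only, and the arrays carry no measurement of factor binding.

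Signals are given on the linear scale of the arrays, on which the array medians lay between 52.2 and 56.4. The study's minimum signal of 50 was used as the floor of measurement. Group means are geometric means of 3 arrays, SD is that of log2 values, and differences are log2 differences from 1 limma fit over all 12071 genes that reached a mean of 50 in at least 1 group, with p-values adjusted over these genes. Of the members, 4 passed that filter and Ptx3 did not. Quantile normalization sets all arrays to 1 distribution and thereby hides any shift common to most genes, and in RNA from whole cultures fewer expressing cells and less RNA per cell cannot be told apart. With 3 arrays per group, the number of arrays limits the precision.

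The cells carried markers of their label, though some of these read near the floor of 50. All 11 microglia and macrophage markers with a probe set reached a signal of 50 on 1 or more arrays, and their summed signal was 30686 to 43289 over the 12 arrays. P2ry12 and Tmem119, which set resident microglia apart from other macrophages, read near the floor of 50, with group means of 23.1 to 73.8 and 58.5 to 77.4. So did Cx3cr1, with group means of 43.7 to 54.6. The granule genes of neutrophils, in which Lcn2 is also stored, summed to 299.82 to 469.82 with 6 of 9 under 50 on every array. Of these Camp rose with LPS, from a mean under 50 in control to 74.9 (adjusted p = 0.0269). Of the macrophage markers Adgre1 rose by 1.29 (0.0310), from 2811 to 6863, both in the comparison in which the members rose. In the same comparison the granule gene Mmp8 fell from 107 to 49.6 and the macrophage marker Trem2 from 4031 to 2223. These 2 passed only with the replicate number as a block in the fit (adjusted p = 0.0144 and 0.00819), where 819 of 12071 genes were called lower. Hepatocyte genes summed to 324.23 to 421.07 with 5 of 8 under 50 on every array. Astrocyte genes summed to 1392.6 to 3608.7, with 3 of 8 under 50 on every array. Their sum was lower in the luteolin + LPS group (1392.6 to 2775.9) than in control (3158.8 to 3561.4). Most of that sum was Aldoc, with group means of 3061 in control and 1839 with luteolin + LPS, which passed in no comparison. Gfap (60.1 to 70.4) and Slc1a3 (68.0 to 75.4) had group means near the floor throughout. Fibroblast genes summed to 154.04 to 175.75 with 5 of 6 under 50. The part of these markers in the results was not tested.

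The arrays of the luteolin + LPS group lay far apart. In replicate 2, all 4 measured members had the lowest signal of their group, with log2 deviations from the group mean of -0.93 (Hp) to -2.36 (Lcn2). In replicate 3, Lcn2, Saa3 and Hp had the highest, with deviations of 2.40 for Lcn2, 1.19 for Saa3 and 1.69 for Hp, while Cp was highest in replicate 1. The SD of this group was 1.34 to 2.38 over the 4 genes, against 0.13 to 0.78 in the LPS group. Members' results that rest on this group are therefore also given without replicate 2 and without replicate 3.

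**Figure D1:**
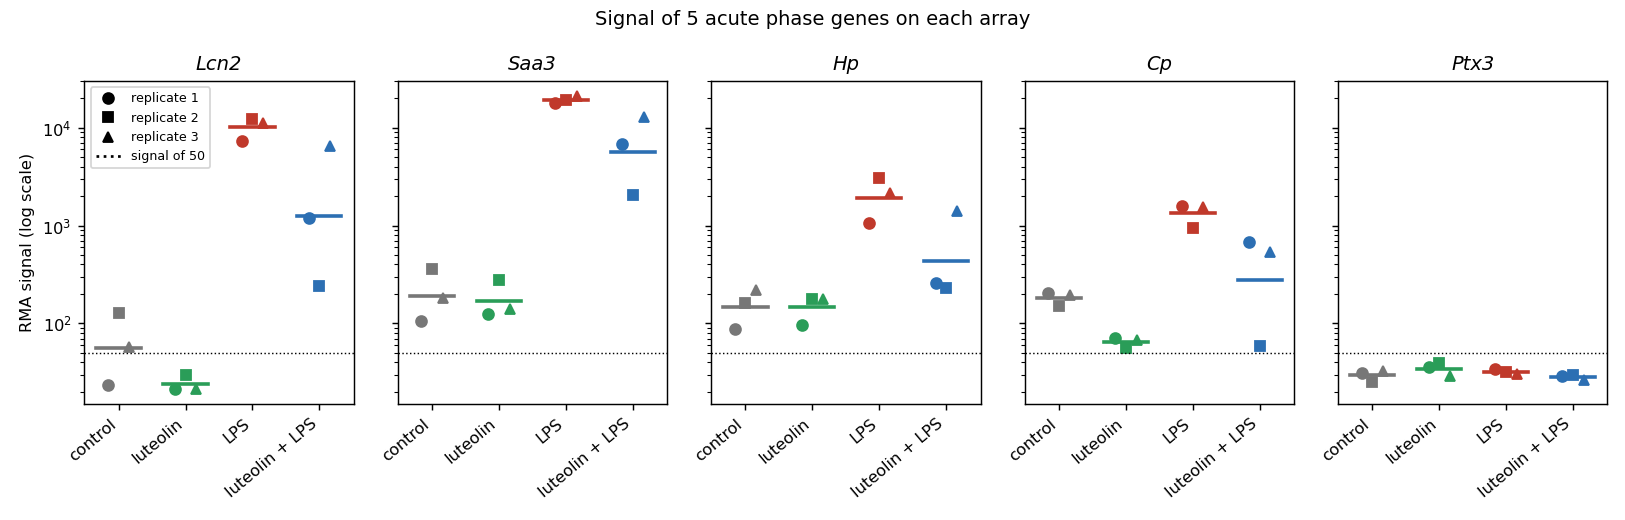
RMA signal (log scale) of the 5 genes on each of the 12 arrays, by group, with the marker shape giving the replicate number, the horizontal bar the geometric mean of 3 arrays and the dotted line a signal of 50. The 3 LPS arrays lie above all control arrays for Lcn2, Saa3, Hp and Cp, the luteolin + LPS arrays are widely spread, and Ptx3 stays under 50 on all arrays.

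Lcn2, the siderophore-binding lipocalin, had the largest difference with LPS among the members. Its signals in control cells were 23.5, 128 and 57.3 (mean 55.6, SD 1.23, n = 3) and with luteolin alone 21.3, 29.6 and 21.5 (mean 23.9, SD 0.27, n = 3). With LPS they were 7377, 12329 and 11277 (mean 10085, SD 0.40, n = 3), and with luteolin + LPS 1203, 242 and 6527 (mean 1239, SD 2.38, n = 3). The luteolin arrays all lay under 50 and 1 control array did too, whereas every LPS array lay far above every unstimulated one. The luteolin + LPS arrays fell between, above all unstimulated arrays and below all LPS arrays, with replicate 3 close to the lowest LPS array.

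LPS raised Lcn2 by 7.50 on the log2 scale (SE 0.95, 95% interval 5.40 to 9.60, adjusted p = 0.00209), and the difference was 8.30, 6.59 and 7.62 within replicates 1, 2 and 3. With the control array under 50 set to 50, the rise was at least 141-fold. In the presence of luteolin, LPS still raised it by 5.70 (SE 0.95, adjusted p = 0.0142), which is at least 24.8-fold when the luteolin arrays are set to 50. This call was lost when only the groups compared were fitted (adjusted p = 0.0801) and when any 1 luteolin array was left out (0.0509 to 0.0768). With luteolin + LPS replicate 2 left out it was 6.88, with replicate 3 left out 4.50, and it passed in both.

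Saa3 had signals of 106, 358 and 181 in control cells (mean 190.28, SD 0.88, n = 3) and of 126, 276 and 141 with luteolin (mean 170.04, SD 0.61, n = 3). LPS took it to 17731, 19385 and 21274 (mean 19410, SD 0.13, n = 3), where the highest signal of any probe set on an array was 28071 to 30081. With luteolin + LPS the signals were 6783, 2078 and 12922 (mean 5668, SD 1.34, n = 3). Control and luteolin arrays overlapped in full, and the LPS arrays were the tightest group of the gene and the highest.

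The rise of Saa3 with LPS was 6.67 (SE 0.61, 95% interval 5.34 to 8.01, adjusted p = 4.14e-04), or 102-fold, and 7.38, 5.76 and 6.88 within the replicates. With luteolin present it was 5.06 (SE 0.61, adjusted p = 0.00188), or 33.3-fold, and it was 5.78 with luteolin + LPS replicate 2 left out and 4.46 with replicate 3 left out. Both calls held in all 23 alternatives run.

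Hp, the hemoglobin scavenger, had signals of 88.5, 162 and 222 in control cells (mean 147, SD 0.67, n = 3) and of 97.2, 179 and 177 with luteolin (mean 145, SD 0.50, n = 3). In LPS-treated cells they were 1058, 3082 and 2141 (mean 1911, SD 0.78, n = 3), and with luteolin + LPS 259, 230 and 1415 (mean 439, SD 1.47, n = 3). LPS arrays lay above all control arrays. Here luteolin + LPS replicate 3 reached into the range of the LPS arrays, while the other two luteolin + LPS arrays lay just above the highest unstimulated array.

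LPS raised Hp by 3.70 (SE 0.66, 95% interval 2.25 to 5.15, adjusted p = 0.0116), or 13.0-fold, and by 3.58, 4.25 and 3.27 within the replicates. With luteolin present the difference was 1.59 (SE 0.66, 95% interval 0.15 to 3.04) and did not pass (adjusted p = 0.366), although the arrays of these groups did not overlap. Within replicates it was 1.42, 0.37 and 3.00. It was 2.06 (adjusted p = 0.235) when luteolin + LPS replicate 2 was left out and 0.75 (0.709) when replicate 3 was.

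Cp, the ferroxidase, was the only member whose control and luteolin arrays did not overlap. Its control signals were 206, 149 and 196 (mean 182, SD 0.25, n = 3) and its luteolin signals 71.0, 55.7 and 67.3 (mean 64.3, SD 0.18, n = 3). LPS gave 1596, 939 and 1565 (mean 1329, SD 0.43, n = 3). Luteolin + LPS gave 676, 59.1 and 535 (mean 278, SD 1.94, n = 3), so that replicate 2 sat inside the luteolin range and the other two arrays between control and LPS.

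LPS raised Cp by 2.87 (SE 0.71, 95% interval 1.31 to 4.43, adjusted p = 0.0487), or 7.30-fold, and by 2.95, 2.66 and 3.00 within the replicates. The adjusted p lay just inside the threshold of 0.05. Of the 23 alternatives, 13 kept the call. It was lost without a filter on low values (adjusted p = 0.0589) and when any 1 control, luteolin or LPS array was left out (0.0664 to 0.135), and with the replicate number as a block it was 0.0129. With luteolin present the difference was 2.11 (SE 0.71, adjusted p = 0.223), and it was 3.23 (adjusted p = 3.34e-04) when luteolin + LPS replicate 2 was left out and 1.64 (0.529) when replicate 3 was.

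Ptx3 was at 25.4 to 39.6 on all 12 arrays with its brighter probe set and at 7.93 to 10.7 with the other. The group means of the brighter one were 29.4 in control, 34.5 with luteolin, 32.1 with LPS and 28.3 with luteolin + LPS. All of these lie under the floor of 50, so the groups have no order and Ptx3 is left out of the comparisons that follow.

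All 4 measured members thus passed the test for LPS versus control, in the upward direction, where 1.96% of all 12071 genes were called higher, and in all 4 the arrays of the groups did not overlap, as was so for 11.5% of all genes. In the presence of luteolin, 2 of the 4 members, Lcn2 and Saa3, passed for luteolin + LPS versus luteolin, where 0.804% of genes were called higher, and Hp was the third without overlap of the arrays, as were 7.36% of all genes in the upward direction. Adding luteolin to LPS changed none of the 4 past the threshold without a block, where 0.356% of genes were called lower. For luteolin alone none of the 4 passed, and 0% of all genes were called in the limma fit without a block. With the replicate block 34 of 12071 genes were called, and with array weights 962. A missing call is therefore no evidence of no change.

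For luteolin + LPS versus LPS all 4 differences pointed downward. Lcn2 had a log2 difference of -3.03 (SE 0.95, 95% interval -5.13 to -0.92, adjusted p = 0.166), which is 8.14-fold lower, and Saa3 one of -1.78 (SE 0.61, 95% interval -3.11 to -0.44, adjusted p = 0.202), 3.42-fold lower. Hp had a difference of -2.12 (SE 0.66, 95% interval -3.57 to -0.68, adjusted p = 0.159), 4.36-fold lower. That of Cp was -2.26 (SE 0.71, 95% interval -3.82 to -0.70, adjusted p = 0.165), 4.79-fold lower.

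Every replicate showed this direction in every one of the 4 genes, by different amounts. Within replicates 1, 2 and 3, the difference was -2.62, -5.67 and -0.79 for Lcn2, -1.39, -3.22 and -0.72 for Saa3, -2.03, -3.74 and -0.60 for Hp, and -1.24, -3.99 and -1.55 for Cp. Replicate 2 gave the widest gap in each. The unadjusted p was 0.00900, 0.0139, 0.00807 and 0.00873 in the same order of genes, and an unadjusted p under 0.05 with a lower value was found in 7.98% of all genes. Arrays of the groups did not overlap for Lcn2, Saa3 and Cp, against 8.04% of all genes that were lower with no overlap. Over all tested genes, 0.0497% had a lower log2 difference than Lcn2 and 0.464% a lower one than Saa3, the members at either end.

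These calls moved with the treatment of the replicates. With the replicate number as a fixed block, Hp passed (adjusted p = 0.0401), where 2.84% of all genes were called lower, and with the number as a random block it did not (0.0506), nor did any other member. With the fixed block the values were 0.0981 for Lcn2, 0.134 for Saa3 and 0.0507 for Cp. Without luteolin + LPS replicate 2, the differences shrank to -1.85 for Lcn2, -1.05 for Saa3, -1.66 for Hp and -1.14 for Cp. Without luteolin + LPS replicate 3 they grew, and Lcn2 (-4.22, adjusted p = 0.0359) and Hp (-2.97, 0.0298) passed while Saa3 (-2.37, 0.0831) and Cp (-2.73, 0.123) did not. In that fit 102 of 12071 genes were called lower. Lcn2, Saa3, Hp and Cp are among the genes the study itself picked from these arrays for this comparison. Their direction here is therefore not independent evidence, and the comparison shares its LPS arrays with LPS versus control. The study also reported lower Hp and Lcn2 with luteolin by quantitative RT-PCR, on RNA from replicate experiments with BV-2 cells. Whether that RNA was the same as on the arrays is not given.

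**Figure D2:**
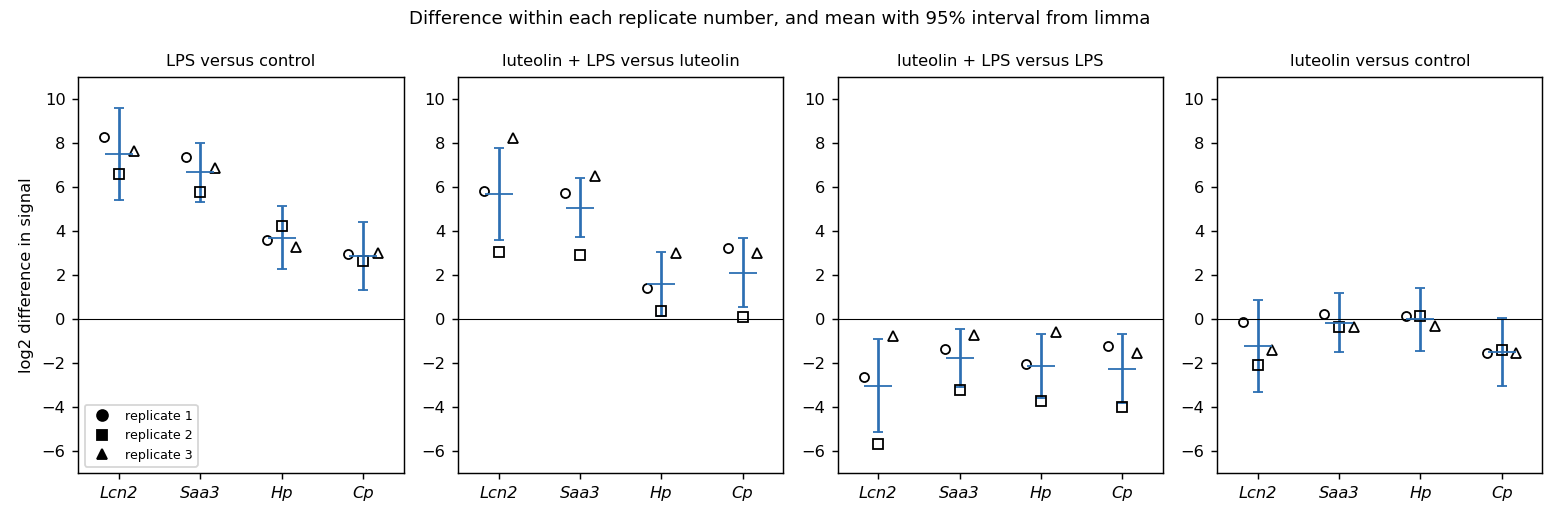
Log2 difference in signal for the 4 measured genes in 4 comparisons, with open markers for the difference within replicates 1 to 3 and bars for the mean with its 95% interval from limma. The LPS versus control intervals lie above 0, the luteolin + LPS versus LPS intervals below 0 before adjustment over 12071 genes, and the luteolin versus control intervals include 0.

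In resting cells, luteolin alone gave Cp a difference of -1.50 (SE 0.71, 95% interval -3.06 to 0.06, unadjusted p = 0.0579, adjusted p = 0.575), 2.83-fold lower, with -1.54, -1.42 and -1.54 within the replicates. The replicates thus lay close together while the SE, which is set by the spread over all 4 groups, was large. Without overlap and lower were 11.3% of all genes in this comparison. With array weights, which count widely scattered arrays less, Cp passed (adjusted p = 0.0419), where 627 of 12071 genes were called lower. With the replicate block it did not (0.236), where 0.199% of genes were called lower. With the block and without luteolin + LPS replicate 2 it passed again (0.0119), where 82 of 12071 genes were called lower.

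The other members did not pass for luteolin versus control in any of the 23 alternatives run. Lcn2 had a difference of -1.22 (SE 0.95, 95% interval -3.32 to 0.88, adjusted p = 0.785), which was -0.52 with arrays under 50 set to 50. The values were -0.16 (95% interval -1.50 to 1.17) for Saa3 and -0.02 (95% interval -1.46 to 1.43) for Hp. These intervals leave room for a change of more than 1 log2 unit in either direction for Saa3 and Hp. In this comparison limma called 0 of 12071 genes, with 1097 at an unadjusted p under 0.05, and 34 with the replicate block.

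The interaction, which asks whether the LPS response itself differed with luteolin, was -1.80 (95% interval -4.78 to 1.17) for Lcn2, -1.61 (-3.50 to 0.28) for Saa3, -2.11 (-4.15 to -0.06) for Hp and -0.76 (-2.97 to 1.45) for Cp. All 4 had an adjusted p of 0.999 by limma, and 0 genes were called, with 380 of 12071, or 3.15%, at an unadjusted p under 0.05. Hp was the member among those 380 (unadjusted p = 0.0447). Without luteolin + LPS replicate 2 the interaction was -0.63 for Lcn2, -0.89 for Saa3 and -1.64 for Hp, and that of Cp was 0.36, with the opposite sign. When replicate 3 was left out instead, all 4 were below 0, with -2.21 for Saa3, -2.95 for Hp, -1.23 for Cp and a value just beyond that of Hp for Lcn2, and none passed.

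Put as the share of the LPS signal that was kept with luteolin + LPS, Lcn2 kept 12.3%, Cp 20.9%, Hp 23.0% and Saa3 29.2%. Within replicates 1, 2 and 3 the share was 16.3%, 1.96% and 57.9% for Lcn2 and 38.3%, 10.7% and 60.7% for Saa3. It was 24.5%, 7.47% and 66.1% for Hp and 42.3%, 6.30% and 34.2% for Cp. Replicate 2 kept least in all 4, and replicate 3 kept most in Lcn2, Saa3 and Hp but not in Cp. Without luteolin + LPS replicate 2 the shares were 27.8% for Lcn2, 48.2% for Saa3, 31.7% for Hp and 45.3% for Cp, and with replicate 3 left out instead they were 5.35%, 19.3%, 12.8% and 15.05%. The spread between replicates exceeded the spread between genes, so the 4 shares have no order beyond it.

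What was left with luteolin + LPS still lay above the untreated cells for 3 of the genes. Against control, the mean log2 difference was 4.48 for Lcn2, 4.90 for Saa3 and 1.58 for Hp, with all 3 replicates above 0 in each. For Cp it was 0.61, with 1.71 and 1.45 in replicates 1 and 3 and -1.33 in replicate 2. With luteolin + LPS replicate 2 left out the means were 5.65 for Lcn2, 5.62 for Saa3, 2.04 for Hp and 1.72 for Cp, and with replicate 3 left out they were 3.28, 4.30, 0.73 and 0.13. These values were not tested and are given as a description.

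Cp, with 8 probe sets, allowed a check of how well the value rests on a single one. Of them 6 reached the mean signal of 50 in a group, and any pair of these 6 correlated over the 12 arrays with r between 0.924 and 0.996, a median of 0.990. The log2 difference between LPS and control was 2.87 to 3.11 in 5 of them and 1.70 in 1448735_at, whose LPS arrays read 52.2 to 64.0 and all others under 50. When every probe set was tested on its own, Lcn2 (adjusted p = 0.00310), Saa3 (6.60e-04) and Hp (0.0150) passed for LPS versus control. Of the Cp probe sets 1448735_at passed (0.00831), and the one used for the gene had 0.0565. Between luteolin + LPS and LPS, 1448735_at alone among the members' probe sets passed (-1.71, adjusted p = 0.0362). This probe set entered the fit only through its LPS group. Its differences are therefore taken against signals under the floor, and its calls are no support. With the replicate block, all 6 tested Cp probe sets passed for LPS versus control, the one used for the gene at 0.0175, and for luteolin + LPS versus LPS the Hp probe set (0.0486) and 1417495_x_at (0.0494) passed besides 1448735_at (0.0191). For luteolin versus control, the 5 probe sets not used for the gene had differences of -0.62 to -2.23, and several of their luteolin arrays lay under 50. Several Cp probe sets are annotated to the same transcript records, so they are not independent measurements, and the suffix x of 1417495_x_at marks probes that may also hybridize to other sequences. Ptx3's probe sets could not be compared, both being under 50.

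**Figure D3:**
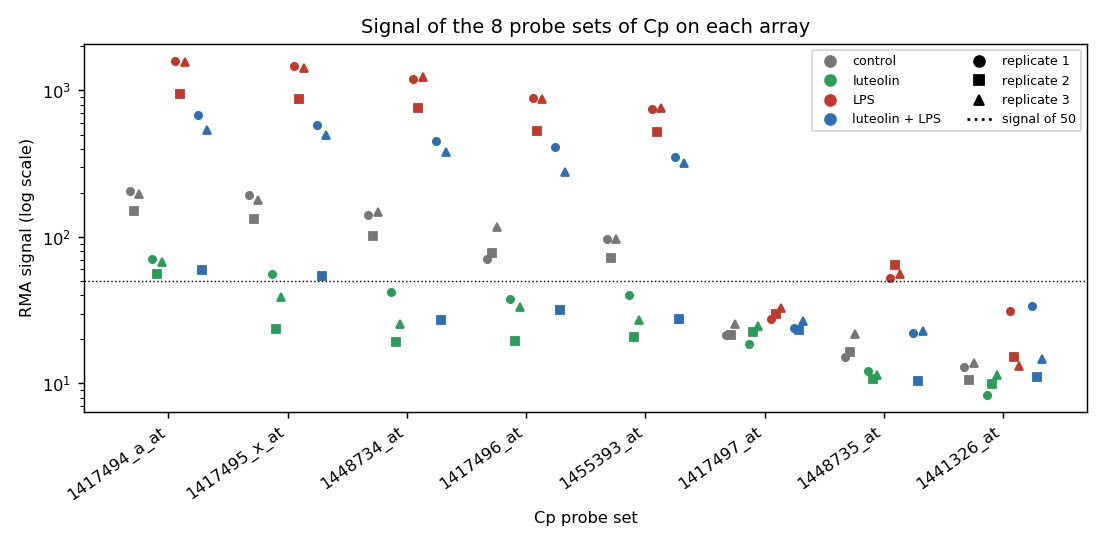
RMA signal (log scale) of the 8 Cp probe sets on each array, with colour for the group, marker shape for the replicate number and a dotted line at a signal of 50. In the 5 brightest probe sets the LPS arrays lie highest and luteolin + LPS replicate 2 lies near the luteolin arrays, while 1417497_at and 1441326_at stay under 50 on all arrays.

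How far the members varied together between arrays of 1 group differed by gene. Over the 12 arrays the log2 signals of Lcn2 and Saa3 had r = 0.983, after each group's mean was taken off r = 0.943, and over the 9 arrays outside the luteolin + LPS group the latter was 0.898. For Lcn2 and Hp the values were 0.938, 0.804 and 0.616, and for Saa3 and Hp 0.900, 0.683 and 0.489. With Cp the values were 0.883, 0.602 and -0.63 for Lcn2, 0.827, 0.585 and -0.56 for Saa3, and 0.800, 0.259 and -0.62 for Hp. The sign for Cp thus turned when the luteolin + LPS arrays were left out, and no correlation was computed within that group alone. In that group each of these genes was lowest in replicate 2, while Cp was highest in replicate 1 and the others in replicate 3. The points share arrays, treatments and 3 experiments, and the first value of each triple mostly reflects the LPS groups.

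Other acute phase genes were read from a list of 30, of which 24 had a probe set and 9 were tested. LPS raised 3 of the 9, where 1.96% of all genes were called higher, and none passed downward. Il1rn, the interleukin 1 receptor antagonist, rose by 4.75 (adjusted p = 7.94e-04), Cfb, complement factor B, passed at 9.20e-04 and Saa1, a serum amyloid A gene of the liver, at 0.00208. Cfb and Saa1 lay under 50 on all control arrays, so that their rises were at least 7.98-fold and 1.24-fold. Saa1 passed the filter only through its LPS group, which favours a rise, so its calls are no support. With the replicate block Orm1, an orosomucoid, passed too (1.22, adjusted p = 0.0437), where 519 of 12071 genes were called higher. Its control arrays lay under 50, and it passed the filter only through the groups given LPS. The median of the 9 was 0.56, beside -0.04 over all genes, and it includes these genes. The negative acute phase list, liver transport proteins that fall in the response, had 3 tested genes of 8 and no call. Its median was 0.20, and Ttr (transthyretin, 0.25, adjusted p = 0.357) and Apoa1 (0.20, 0.459) had the largest values.

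The same 3 genes were the ones of that list lowered when luteolin was added to LPS, where 0.356% of all genes were called lower. The comparisons share the LPS arrays. Il1rn had signals of 3111, 3859 and 5579 with LPS and of 285, 360 and 1037 with luteolin + LPS (log2 difference -3.10, adjusted p = 0.0234). Cfb had 824, 280 and 275 with LPS and 76.3, 43.0 and 59.4 with both (log2 difference -2.78, adjusted p = 0.0122). Saa1 had 40.6, 71.7 and 82.2 with LPS and 18.3, 16.3 and 18.6 with both (adjusted p = 0.0121). Its luteolin + LPS arrays and 1 LPS array were under the floor, so no size is given. In Il1rn and Cfb the arrays of the groups did not overlap, against 8.04% of all genes that were lower with no overlap. For Saa1 the arrays under the floor have no order. The median of the list was -0.24, beside 0.02 over all genes. With only the groups compared in the fit, none of the 3 passed (adjusted p = 0.206 to 0.217). Il1rn was also lost without luteolin + LPS replicate 2 (0.0913), without LPS replicate 2 (0.0669) and without LPS replicate 3 (0.111). Cfb (-2.57, adjusted p = 0.0495) and Saa1 (0.0422) still passed without luteolin + LPS replicate 2. Cfb and Il1rn too are among the genes the study picked on these arrays, and it also reported lower Cfb with luteolin by quantitative RT-PCR. For luteolin versus control no gene of the list passed, and Mt1, a metallothionein, had the largest difference (0.53, adjusted p = 0.470). None passed for luteolin + LPS versus luteolin either, except Il1rn with the replicate block (1.63, adjusted p = 0.0170 against 0.145 without it).

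The cytokines that drive these genes, with their receptors, were 14 genes, of which 11 were tested. LPS raised 5 and lowered 1 of them, with a median of 0.54. Over all 12071 genes, 237 were called higher and 268 lower. Il6, the main inducer in liver, passed at 2.36e-04 and Il1a at 0.00150, and since both lay under 50 on all control arrays their rises were at least 60.7-fold and 7.98-fold. Il1b rose by 4.61 (adjusted p = 9.76e-04) and Tnf by 2.57 (0.00306). The fifth was the TNF receptor Tnfrsf1b, and the gene that fell was Il6ra, the ligand-binding chain of the interleukin 6 receptor (-2.21, adjusted p = 0.00198), both named after their values were seen. In the presence of luteolin 4 rose, namely Il6 (adjusted p = 1.77e-04, from signals under 50 with luteolin), Il1b (3.94), Tnf (2.74) and Tnfrsf1b (1.47). Over all genes, 97 of 12071 were called higher there. The replicate block added Il1a (adjusted p = 0.0314) upward and Il6ra (0.00705) downward, where 210 genes were called higher and 344 lower.

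None of the 11 passed for luteolin + LPS versus LPS, where 61 of 12071 genes were called, and the median was -0.05. The largest differences were those of Il1a (-2.09, adjusted p = 0.0690) and Il6ra (1.22, adjusted p = 0.0711). Both passed with the replicate block (0.0281 and 0.00678), where 343 of 12071 genes were called lower and 235 higher. Il6 had -0.89 (adjusted p = 0.529), Il1b -0.55 (0.670) and Tnf 0.18 (0.873). By quantitative RT-PCR the study reported that luteolin, given before LPS, lowered Il6 with increasing dose in BV-2 cells. No gene of the list passed for luteolin versus control, where Tnfrsf1b had 0.48 (adjusted p = 0.417) and Il6 lay under 50 in both groups.

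Transcription factors and feedback genes of the response were 18, of which 16 were tested. LPS raised 6 and lowered 1, against 237 and 268 of all 12071 genes, with a median of 0.82. The largest were Tnfaip3, the deubiquitinating brake on NFkB (3.01, adjusted p = 0.00210), and Nfkbiz, a nuclear IkB protein that NFkB needs at Lcn2 and other secondary genes (2.68, 0.00111). Nfkbia, the IkB alpha inhibitor, rose by 2.45 (0.00120) and Bcl3 by 2.28 (4.14e-04). The gene that fell was Cebpa, a C/EBP factor, named after its values were seen. Its difference was -1.10 (adjusted p = 0.02245), from a mean signal of 575 to 268, and 18 of 23 alternatives kept the call. In the presence of luteolin 7 rose and none fell, against 97 and 121 of all 12071 genes, with a median of 1.13. These were led by Nfkbiz (3.14), Tnfaip3 (2.82), Nfkbia (2.56) and Bcl3 (2.21). The replicate block added Cebpb (0.68, adjusted p = 0.0449) and Stat3 (0.57, 0.0112) to those that rose in LPS versus control. With that block 519 of 12071 genes were called higher. None of the 16 passed for luteolin + LPS versus LPS (median -0.09), where 61 of 12071 genes were called. Cebpd, a C/EBP factor of the acute phase, had 1.23 (adjusted p = 0.385) and Cebpa 0.81 (0.127). None passed for luteolin versus control, where Relb had -0.82 (adjusted p = 0.389) and Nfkb2 -0.54 (0.394).

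Receptors and binding partners of the 5 proteins were 23, of which 15 were tested, with a median of -0.00 for LPS versus control. In that comparison 237 of 12071 genes were called higher. LPS raised 2, Tlr2, a Toll-like receptor that serum amyloid A can engage (2.04, adjusted p = 0.0147), and Hmox1, heme oxygenase 1, which breaks down the heme that haptoglobin helps deliver (1.97, 0.0365). The call of Hmox1 was lost in 8 of 23 alternatives, with an adjusted p of up to 0.121 when only the groups compared were fitted, and that of Tlr2 in 2, without control replicate 1 (0.0579) and without LPS replicate 3 (0.0656). Tlr2 was the 1 gene of the list that rose with LPS in the presence of luteolin (2.38, adjusted p = 0.0105), where 97 genes were called higher. The replicate block added 3 that fell, Tlr4 (-0.58, 0.0444), Slc40a1, the iron exporter ferroportin (-1.09, 0.0183), and C1qc (-1.50, 0.0361). With that block 344 of 12071 genes were called lower. Luteolin changed none past the threshold in LPS-treated cells, where C1qb had -1.24 (adjusted p = 0.431). None passed for luteolin versus control either, where the scavenger receptor Cd36 had 1.34 (0.388). The study, with its own test on these arrays, listed Cd36 and Hmox1 as raised by luteolin in resting cells. It also reported both as raised by quantitative RT-PCR. Slc22a17, a lipocalin 2 receptor, had a difference of 0.12 with LPS (adjusted p = 0.630), and Lrp2 (17.1 to 20.2), another one, and the haptoglobin receptor Cd163 (8.64 to 9.65) had group means under 50 throughout. These receptors were named for the members they bind, after their values were seen.

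The share of the LPS signal kept with luteolin + LPS was set side by side for the genes of these lists that LPS raised. Choosing them by that call uses the same LPS arrays that the share is computed against, which bears on its size. The 4 members, Cfb and Il1rn were also picked by the study as lowered in this comparison on these arrays. The other genes shown were not in its list for this comparison. A lower share in the former than in the latter is therefore not independent evidence, and no difference between lists was tested. The median was 21.9% over the 4 members, 14.5% over the 3 other acute phase genes, 68.1% over 5 cytokines and receptors, 84.8% over 6 transcription factors and feedback genes, and 104.03% over Tlr2 and Hmox1. Leaving out luteolin + LPS replicate 2 gave medians of 38.5%, 16.9%, 90.4%, 102.75% and 105.51%, and with replicate 3 left out they were 13.9%, 14.4%, 40.6%, 80.4% and 88.7%. The share of Saa1 rests on signals under 50. The size of the LPS rise also bounds the share, since a gene back at its control level keeps more where LPS raised it less. Control and LPS signals were 55.6 and 10085 for Lcn2, but 272 and 714 for Nfkb2 and 1378 and 5397 for Hmox1. On the log2 scale, the mean LPS rise with luteolin was 75.9% of that without it for Lcn2, 75.8% for Saa3, 73.6% for Cp and 43.1% for Hp. Those rises moved with the replicate left out, as given above. Among the cytokines Il1a, at 23.5%, lay within the range of the members, and Il6 came next at 54.1%. Nfkbia kept 101.76% and Nfkbiz 146%. In replicate 3, Il6 (104.04%) and Il1b (133%) were at or above their LPS signal while Lcn2 kept 57.9% and Il1rn 18.6%.

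**Figure D4:**
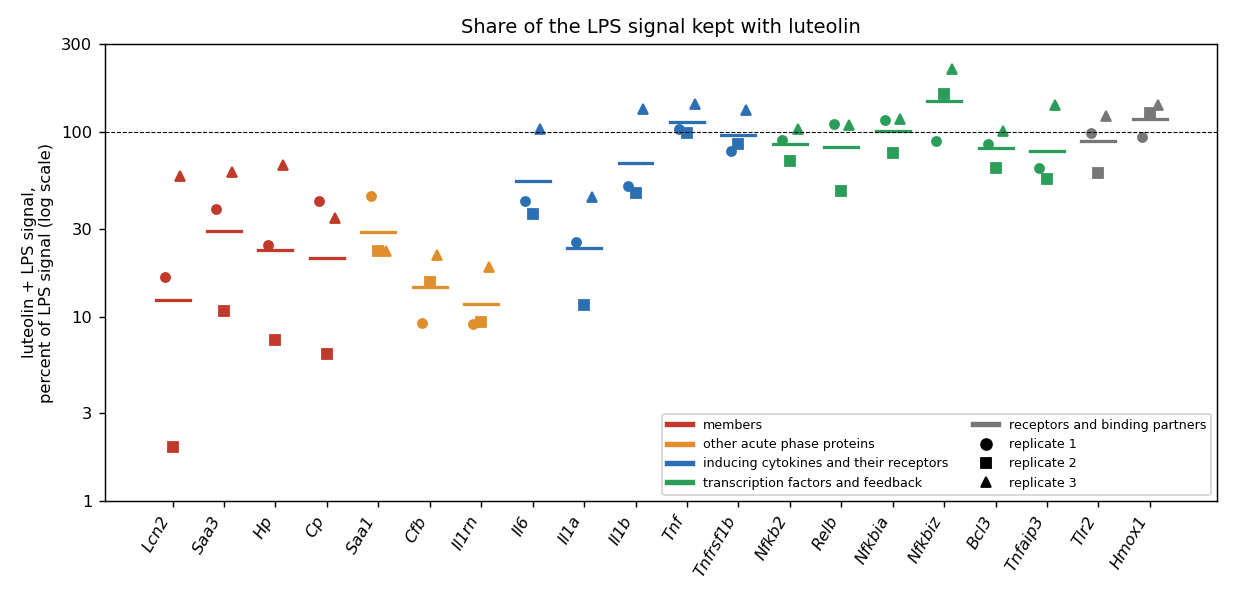
Luteolin + LPS signal as a percent of the LPS signal (log scale) for each gene of the members and lists that passed for LPS versus control in the upward direction, with markers for replicates 1 to 3, bars for the mean of the log values and colours for the lists. The 4 members and the 3 other acute phase genes lie between 11.7% and 29.2% in the mean, and the 6 transcription factors and feedback genes between 78.9% and 146%. The size of the LPS rise, which bounds the share, differed between genes, and no difference between lists was tested.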

How the data were processed

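BV-2 RNA was measured on 12 Affymetrix arrays. The authors made 1 value per probe set and array with RMA (background correction, quantile normalization and median polish), and what was deposited is an intensity on the linear scale, which was turned into log2 here. The methods' joint treatment, written as LPS plus LPS, was read as luteolin plus LPS after the labels. Of 45101 probe sets, 34958 named 1 gene, 932 several and 9211 none here, with 34754 names brought up to date through RefSeq. A gene was represented by its probe set of highest mean. Means of all 4 groups entered 1 fit (limma 3.58.1, R 4.3.3, moderated by eBayes), with Benjamini-Hochberg adjustment over 12071 genes and a threshold of 0.05, and the steps were tested on simulated data. The study's own single-probe test needs the scans, which were not used here. Plots were made in Python 3.11.15 with matplotlib 3.10.9.

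The arrays carry replicate numbers 1 to 3. Deviations from the group means correlated between same-numbered arrays in all 18 pairs (r = 0.101 to 0.591, median 0.421). Between different numbers r was -0.563 to 0.483 with a median of -0.295, and 8 of 36 pairs were over 0.1. Deviations cancel within a group, so that negative median is no separate support for the pairing. The numbers were taken to pair the arrays, and the fit with the number as a block is given where it changes the call of a member or of a gene in the 5 lists of acute phase genes and their regulators. Alternatives covered the block, the filter, the probe set rule, scaling, array weights, the variance model and leaving out each array.

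The members, lists and tests were chosen with earlier results of these data known. The genes named are the 5 members, from each list up to 4 called genes with the largest log2 difference (up to 2 where none was called), and the 3 genes most like each member.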

Additional observations from a re-analysis of the deposited data

How the results depend on the processing

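For LPS versus control, Lcn2, Saa3 and Hp passed in all 23 alternatives and Cp in 13. Luteolin versus control had 1 of 4 members called with array weights and 1 with the block when luteolin + LPS replicate 2 was also left out, both Cp, and 0 otherwise. For luteolin + LPS versus LPS, 1 was called with the replicate block (Hp) and 0 with the random block, 1 with the block and without luteolin + LPS replicate 2 (Cp), and 0 to 2 when 1 array was left out. For luteolin + LPS versus luteolin, 1 was called with only the groups compared, 4 with the block and without luteolin + LPS replicate 2, and 1 to 3 when 1 array was left out. That array was left out together with the block, and the list counts were recomputed, after the data had been seen. The replicate block changed no other call of a member.

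Signs turned for small differences. Leaving out 1 array gave -0.58 to 0.29 for Saa3 and -0.38 to 0.28 for Hp in luteolin versus control, and -1.40 to 0.36 for the interaction of Cp, which was 0.19 with the block and without luteolin + LPS replicate 2. In luteolin + LPS versus LPS, leaving out 1 array gave -0.17 to 0.60 for Tnf, -0.23 to 0.12 for Tnfrsf1b, -0.32 to 0.0085 for Nfkb2, -0.46 to 0.069 for Relb, -0.14 to 0.23 for Nfkbia and -0.58 to 0.086 for Tlr2. With the block and without luteolin + LPS replicate 2 the values were 0.073 for Tnfrsf1b, 0.086 for Relb, 0.15 for Tnfaip3 and 0.21 for Tlr2, and array weights gave 0.19 for Tnfrsf1b. The cause was not tested.

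Over all genes, 505 were called for LPS versus control, 197 to 660 when 1 array was left out, 1338 with the block and 306 to 1950 over the other settings. For luteolin + LPS versus LPS 61 were called, 11 to 142 when 1 array was left out (20 in the fit without luteolin + LPS replicate 2), 578 with the block and 0 when only the groups compared were fitted. For luteolin + LPS versus luteolin 218 were called, 69 to 303 when 1 array was left out and 554 with the block. For luteolin versus control 0 were called, 34 with the block and 962 with array weights. In the lists, the counts over the alternatives were 2 to 5 for other acute phase genes and 5 to 12 for transcription factors in LPS versus control, and 0 to 4 and 0 to 2 in luteolin + LPS versus LPS. The receptors had 0 to 3 in LPS versus control. Signals under 50 bound what can be said of Ptx3, Saa1 and unstimulated Lcn2, and the number of arrays limits the rest.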

Other observations

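The log2 profile of each measured member was set against all tested genes over the 12 arrays, and the 3 with the highest Pearson r are given as a description. All points share 4 treatments and 3 experiments. Lcn2 was most like Saa3 (r = 0.983), the unnamed transcript 1110008P14Rik (0.975) and Slpi, the secretory leukocyte protease inhibitor (0.974). The group means of Slpi were 995 in control, 662 with luteolin, 8416 with LPS and 3460 with luteolin + LPS. Saa3 was most like Birc3, an inhibitor of apoptosis (0.986), Sod2, the mitochondrial superoxide dismutase (0.985), and Acod1, which makes itaconate (0.984), whose group means were 94.0, 70.9, 13489 and 7403 in the same order.

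Hp was most like Il1rn (0.965), followed by Hpn (0.964) and Slc6a13, a GABA transporter (0.953). The group means of Hpn were 44.3, 44.6, 65.1 and 52.3 and those of Slc6a13 44.6, 39.8, 118 and 59.9, so these profiles lie near the floor of 50. Cp was most like St18 (0.965), Adgre1, the macrophage marker F4/80 (0.960), and Jak2, a kinase of the interleukin 6 pathway (0.958). Adgre1 had group means of 2811 in control, 2245 with luteolin, 6863 with LPS and 4191 with luteolin + LPS, an order of the groups that it shared with Cp.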
